A study of Mus musculus with 160 samples.

Results

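The genes described here encode the inflammatory cytokines of the IL-1, IL-6 and TNF families and their closest partners. They are Il1a, Il1b, Il1rn, Il6, Il11, Osm, Osmr, Lif, Tnf and Il33, which makes 10 of the 39179 genes counted. They were chosen by name and by no measured value. RNA was sequenced in bulk from the distal colon of 160 mice of 4 lines, each with homozygous knockout and wild-type animals. The Nckap1l line had 16 knockout (4 female, 12 male) and 15 wild-type samples (8 female, 7 male), and the Dock2 line had 18 knockout (8 female, 10 male) and 24 wild-type samples (12 female, 12 male). The Gpsm3 line had 20 knockout and 20 wild-type samples and the Dok3 line 26 and 21, all labelled male. The strain was C57BL6/J in the Nckap1l, Dock2 and Gpsm3 lines and 129 in the Dok3 line. According to the methods the mice were between 8 and 10 weeks old, came from crosses between heterozygotes, and were housed with littermates of mixed genotype. No cell type is named for the deletions.

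The treatment was dextran sulfate sodium (DSS), a sulfated polysaccharide that damages the lining of the colon when mice drink it. The labels give 3% DSS for the Dock2 and Gpsm3 lines, 3.5% for the Dok3 line and no dose for the Nckap1l line. According to the methods, Nckap1l mice had a dose somewhat below 3%, and Dok3 mice had 3% in a first round and 3.5% later. Which Dok3 samples, if any, come from that first round is not given. Tissue was taken on day 10, or on day 12 in the Nckap1l line. Which samples received DSS is not given for single samples in the sources used here, so treated and untreated animals stand together in every group below. The spread within a group contains that difference. Unequal shares of treated animals would also move every difference between groups given below, and these shares could not be checked. In bulk tissue, fewer cells of a type and less RNA per cell cannot be told apart.

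IL-1α and IL-1β are the ligands of the same receptor, and IL-1 receptor antagonist, the product of Il1rn, occupies that receptor without starting a signal. IL-6, IL-11, oncostatin M and LIF bind receptors that share the subunit gp130 and relay to STAT3, and OSMR is the chain that makes a gp130 complex specific for oncostatin M. TNF acts through its own pair of receptors to NF-κB, and IL-33 is a nuclear cytokine of the IL-1 family released from damaged epithelial and stromal cells. In the colon these cytokines are known from infiltrating myeloid cells and from the stroma that answers them.

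The members lie at separate places in the mouse genome apart from a couple of neighbouring pairs. Il1a (chr2:129299610-129309972 in GRCm38, minus strand) and Il1b (chr2:129364570-129371139, minus strand) are 54597 bp apart, and Osm (chr11:4236420-4241026) and Lif (chr11:4257557-4272514), both on the plus strand, are 16530 bp apart. All 10 are protein-coding. Il1a and Il1b each overlap an antisense gene in the annotation, Gm14023 and Il1bos, whose highest levels in any sample were 11.6 and 4.81 CPM, the count of a gene in every 1000000 counts of a sample. The strand setting of the counting is not given in the sources used here, so reads of Il1a and Il1b and of their antisense partners may have been mixed, and the low counts of both are uncertain to that degree.

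Promoter sequences are shown for Il1a, Il1b, Tnf and Il6, because the first 3 share a TATA box at nearly the same place and because Il6 carries overlapping matches to the outline of an NF-κB site. The sequences are RefSeq's for GRCm38.p6, and each is the 100 bases before the annotated start, 5′ to 3′ on the strand of the gene. Capitals mark matches searched on both strands, and where matches overlap the capitals run together. The motifs were TATAAA for the TATA box, the core TGANTCA of an AP-1 site, and as the outline of an NF-κB site GGG and CC with any 5 bases between them.
Il1a (chr2:129309973-129310072): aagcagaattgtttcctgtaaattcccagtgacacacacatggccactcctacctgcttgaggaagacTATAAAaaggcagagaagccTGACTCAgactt
Il1b (chr2:129371140-129371239): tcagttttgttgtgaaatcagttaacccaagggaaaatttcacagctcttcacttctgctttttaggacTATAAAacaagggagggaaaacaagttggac
Tnf (chr17:35202008-35202107): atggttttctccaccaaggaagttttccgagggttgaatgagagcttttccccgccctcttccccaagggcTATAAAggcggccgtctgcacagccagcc
Il6 (chr5:30013014-30013113): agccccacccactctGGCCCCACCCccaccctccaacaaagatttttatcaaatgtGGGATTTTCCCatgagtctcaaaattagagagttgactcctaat
The first base of TATAAA was at -32 in Il1a, -31 in Il1b and -29 in Tnf, counted from the start. It was also at -29 in a promoter of Il33 that is not shown. RefSeq windows from 250 bases before the start to 50 after it were at hand for 9 of the 10 members, with 13 windows in all. Matches to TATAAA were found in 5 of these 9 members, against 13.6% of 32851 windows of all genes, and matches to TGANTCA in 6 of 9, against 7.81%. The NF-κB outline matched in 6 of 9 members, against 50.8% of all windows, and TTCNNNGAA, the outline of a STAT site, in 0 of 9, against 8.3%. A member with several windows had more chances of a match than a single window, and a match describes letters and not a bound site.

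The libraries held between 4344988 and 19993833 counts, with a median of 15989625.5, so 3 counts, the number that a count of 0 allows, correspond to 0.15 to 0.69 CPM. That limit covers counting error only. Summed markers of colon epithelium lay between 1590 and 19400 CPM, so the labelled tissue was present in every library. A summed level of squamous skin markers above 140.8 CPM, which is 10 times the median of all samples, was found in 32 samples, called samples with skin RNA below. They made up 15 of 31 Nckap1l samples, 5 of 42 Dock2 samples, 3 of 40 Gpsm3 samples and 9 of 47 Dok3 samples. Sex markers went against the label in 5 Dok3 samples. Within a line the sample numbers fall into runs, 3 in the Nckap1l line, 2 each in the Gpsm3 and Dok3 lines and 1 in the Dock2 line. Nothing in the labels says what a run stands for. The knocked-out gene itself passed the test only in the Gpsm3 line, where Gpsm3 was lower in the knockout by 2.06 on the log2 scale (edgeR quasi-likelihood test, Benjamini-Hochberg adjusted p = 0.000105). The log2 differences of the knocked-out gene in the other lines were -1.09 for Nckap1l (adjusted p = 0.9996), -0.62 for Dock2 (adjusted p = 0.209) and -0.48 for Dok3 (adjusted p = 0.9996), in the same test, so the knockout labels of those lines could not be checked by a call on the gene's level.

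The receptor antagonist was the most abundant member and Il6 the least. Compared per length, as CPM per kilobase of exon, the medians over the 160 samples were 19.3 for Il1rn, 4.04 for Il33, 3.51 for Osmr, 2.26 for Il1b, 1.60 for Tnf, 1.06 for Lif, 0.569 for Il1a, 0.303 for Il11, 0.260 for Osm and 0.0547 for Il6. The step from Il1rn to Il33 was a clear one, since Il1rn was above Il33 in 154 of 160 samples. The order of the neighbours below was less settled: Il33 was above Osmr in 121 samples, Osmr above Il1b in 101, Il1b above Tnf in 110, and Il11 above Osm in 91 of 160. Osm was above Il6 in 150 samples.

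Il1b varied most. Its level ran from 0.501 CPM through a median of 4.30 to 669 CPM, and its 90th percentile was 124 times its 10th. Osm, the ligand of the OSMR and gp130 complex, ran from 0.0597 through 0.590 to 70.8 CPM, with 46.9-fold between the same percentiles. Il1a ran from 0.331 through 1.12 to 80.2 CPM (23.3-fold) and Il11, a gp130 cytokine of stromal cells, from 0.0678 through 0.631 to 34.1 CPM (20.3-fold). The highest samples of these genes thus lay far above their medians. Il6 was at 0 in 37 libraries and under 3 counts in 84 of 160, with a median of 0.133 and a highest value of 33.5 CPM, so its fold is not given.

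The remaining members stayed within a narrower range. Tnf ran from 0.264 through 2.62 to 41.4 CPM (8.37-fold between the 10th and 90th percentile), Il33 from 3.77 through 11.6 to 209 CPM (7.41-fold), and Osmr from 12.4 through 42.5 to 302 CPM (5.02-fold). Lif, which signals through LIFR and gp130, ran from 2.35 through 4.62 to 32.3 CPM (2.62-fold). Il1rn was the steadiest, from 59.7 through 107 to 389 CPM (1.99-fold).

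The same ranking held for the standard deviation of log2 CPM left after the mean of each line and genotype was removed. It was 2.58 for Il1b, 1.86 for Il6, 1.80 for Osm, 1.61 for Il1a, 1.48 for Il11, 1.22 for Tnf, 1.11 for Il33, 0.86 for Osmr, 0.57 for Lif and 0.45 for Il1rn, against a median of 0.33 over 17066 genes. More than 99% of these genes varied less than Il1b (99.8%), Il6 (99.4%) and Osm (99.3%), whereas 68.1% varied less than Il1rn. The 17066 genes passed a filter on low counts in all 4 lines, which Il6 and Osm did not, and the value of Il6 rests on low counts.

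**Figure D1:**
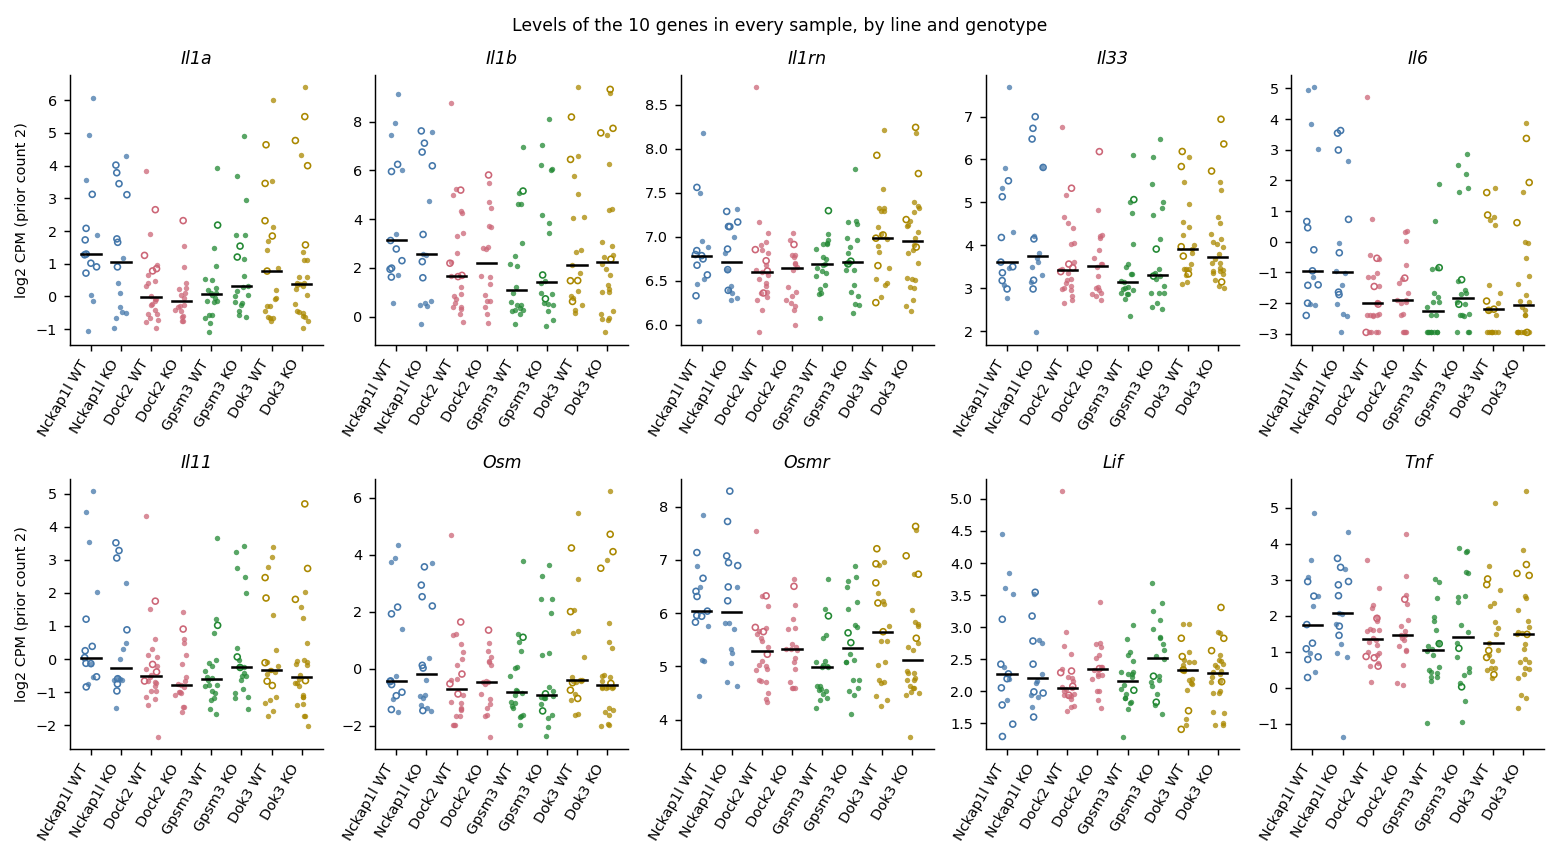
Level of each of the 10 members in every sample, as log2 CPM, with the samples grouped by line and genotype; each point is 1 sample, an open circle where skin RNA was found, the black line is the median of the group, and each panel has its own scale. Il1b spreads over the widest range in every group and Il1rn over a narrow one, and knockout and wild type overlap for all members.

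The plot of levels sets the lines side by side. Wild-type samples were ranked by their median in the 4 lines for each member, and each neighbouring pair in that order was compared on log2 CPM by a permutation test. None of the 30 neighbouring pairs passed after adjustment, and lines farther apart in the order were not tested against each other. A single pair, 1 of the 30, had an unadjusted p under 0.05. This was Il6 in the Nckap1l against the Dock2 line, with medians of 0.378 and 0.122 CPM, a difference of 1.84 in mean log2 CPM and a p of 0.00983 (two-sided permutation test, adjusted p = 0.295). Lines differ also in strain, dose and day of tissue, so line and these conditions cannot be told apart.

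The comparison of knockout with wild type asks whether loss of a key driver gene moved these cytokines. In none of the 4 lines did a member pass the test. The tested members numbered 10 for Nckap1l, 9 for Dock2, 8 for Gpsm3 and 9 for Dok3, because Il6 (outside the Nckap1l line) and Osm (in the Gpsm3 line) fell below the filter on low counts. Of all genes tested, 0% (0 of 17947) were called for Nckap1l, 0.034% (6 of 17648) for Dock2, 0.00569% (1 of 17560) for Gpsm3 and 0% (0 of 17612) for Dok3 by edgeR's quasi-likelihood test at an adjusted p of 0.05. At an unadjusted p under 0.05 the members numbered 0, 0, 3 and 0, against 4.48%, 5.12%, 4.86% and 2.18% of all genes. DESeq2 and limma-voom also called 0 members in each line.

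Il1b in the Nckap1l line ran from 1.36 through 8.69 to 575 CPM in wild type and from 0.697 through 5.72 to 193 CPM in the knockout. In the Dock2 line it ran from 0.746 through 3.12 to 407 CPM in wild type and from 0.712 through 4.87 to 55.9 CPM in the knockout. The groups overlapped over nearly their whole range in both lines. The same was so in the Gpsm3 line, from 0.662 through 1.997 to 131 CPM in wild type and from 0.597 through 2.46 to 285 CPM in the knockout. The Dok3 line held the widest groups, from 1.01 through 4.28 to 669 CPM in wild type and from 0.501 through 4.69 to 654 CPM in the knockout. The log2 differences of knockout from wild type were -0.75 (95% interval -2.62 to 1.13) for Nckap1l, -0.75 (-2.24 to 0.74) for Dock2, 1.27 (-0.31 to 2.85) for Gpsm3 and 0.28 (-1.46 to 2.01) for Dok3. The intervals cover 0 in each line. They reach past 2 on the log2 scale in the negative direction for Nckap1l and Dock2 and in the positive direction for Gpsm3 and Dok3. Changes of Il1b of that size and direction thus lie within the intervals.

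The member with the narrowest intervals was Il1rn, except in the Dok3 line, where Lif had a narrower one (-0.29 to 0.27). The medians of Il1rn were 111 CPM in wild type and 105 CPM in the knockout of the Nckap1l line, 98.2 and 98.8 CPM for Dock2, 101 and 102 CPM for Gpsm3 and 125 and 129 CPM for Dok3. Its log2 differences were -0.22 (-0.56 to 0.12), -0.22 (-0.50 to 0.06), 0.07 (-0.15 to 0.30) and -0.01 (-0.33 to 0.30). The knockout and wild-type medians of the antagonist lay close together in every line, and the intervals leave room for changes of up to about the size of their bounds.

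In the Gpsm3 line all 8 members tested had positive log2 differences, with a median of 0.63 against 0.0032 over all genes tested. Lif ran from 2.35 through 4.31 to 8.403 CPM in wild type and from 2.81 through 5.61 to 12.3 CPM in the knockout, a log2 difference of 0.42 (0.10 to 0.74; unadjusted p = 0.0119). Osmr ran from 17.8 through 30.9 to 104 CPM and from 15.95 through 39.8 to 120 CPM, a difference of 0.51 (0.03 to 0.99; unadjusted p = 0.0369). Tnf ran from 0.365 through 1.92 to 7.80 CPM and from 0.358 through 2.38 to 14.5 CPM, a difference of 0.86 (0.05 to 1.66; unadjusted p = 0.0381). The groups overlapped for each of the 3, and the edgeR adjusted p was 0.937 for each, so none was called. With 2 surrogate variables in the model the differences shrank to 0.28 for Lif, 0.22 for Osmr, 0.32 for Tnf (unadjusted p = 0.159), 0.20 for Il1a from 0.98 and 0.01 for Il1b from 1.27, and Il1rn and Il33 turned to -0.04 and -0.02, with a median of 0.21 over the 8 members. Summed neutrophil markers had medians of 67.6 CPM in wild type and 78.9 CPM in the knockout, with 6 of 6 tested markers positive and none called, and their part in these differences was not tested.

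In the Nckap1l line 8 of 10 members had negative differences, with a median of -0.39 against 0.0083 over all genes. The largest in size were Il6 at -1.21 (-3.13 to 0.71), Il11 at -1.004 (-2.50 to 0.49) and Il1a at -0.79 (-2.23 to 0.64). A single library held the highest value of the line in 8 of the 10 members, the wild-type sample numbered 10. It had 575 CPM of Il1b against at most 241 in the other 30, 68.4 CPM of Il1a against 30.4, and 209 CPM of Il33 against 123, and it held no skin RNA (53.8 CPM of skin markers). Without this library the differences were 0.008 for Il1b, -0.20 for Il11 and -0.54 for Il6, a setting chosen after seeing the data.

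In the Dock2 line 8 of 9 members were negative, with a median of -0.22. Osm was at -1.02 (-2.13 to 0.10) and Il11 at -0.93 (-1.94 to 0.08), and Tnf was the positive one, at 0.35 (-0.24 to 0.94). Here, too, 1 library stood apart: the wild-type male numbered 13 was the highest of 42 in 9 of the 10 members, all but Tnf. It held 407 CPM of Il1b against at most 55.9 in the others, 24.7 CPM of Il6 against 1.57, 24.2 CPM of Osm against 2.98, and 389 CPM of Il1rn against 147. Without it the differences were 0.39 for Il1b, -0.02 for Osm and -0.11 for Il11, and Lif moved from -0.05 to 0.26 (unadjusted p = 0.0188, adjusted p = 0.673 by edgeR), again a setting chosen after seeing the data. Without the 5 samples with skin RNA differences grew instead, to -1.45 for Il1b (unadjusted p = 0.0423), -1.43 for Osm (p = 0.0166), -0.78 for Il1a (p = 0.0390), -0.60 for Il33 (p = 0.0444) and -0.31 for Il1rn (p = 0.0421). These were 5 of 8 tested members at an unadjusted p under 0.05, against 4.92% of all genes, and none was called (smallest edgeR adjusted p = 0.691). Lif and Osmr were then at -0.14 and -0.09, and Tnf shrank to 0.16. That fit still held the wild-type male numbered 13, and no knockout fit left out both that library and the samples with skin RNA. Leaving out 1 wild-type library thus turned the sign of 3 of 10 members in the Nckap1l line (Il1b, Osm and Tnf) and of 4 of 9 with Dock2 (Il1b, Osmr, Lif and Il33).

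In the Dok3 line the differences were small against their intervals, with a median of 0.04 over 9 members, 6 of them positive. The largest in size was Osm at 0.46 (-1.01 to 1.93), and the next was Il1a at 0.34 (-1.03 to 1.70). These values pool 2 runs of sample numbers with opposite signs. Within run 2 (9 knockout and 8 wild-type samples) all 8 members tested were negative, and 4 had an unadjusted p under 0.05, against 16% of all genes: Il1a at -2.95 (p = 0.00301), Il11 at -1.98 (p = 0.0132), Tnf at -1.45 (p = 0.0298) and Il1b at -2.99 (p = 0.0327). Within run 1 (17 knockout and 13 wild-type samples) all 7 tested were positive, with Il1a at 1.59 (p = 0.0781), Il1b at 1.53 (p = 0.177) and Tnf at 1.11 (p = 0.0562). No member was called in either run (smallest edgeR adjusted p = 0.295), the difference between the runs was not tested, and the fits within runs were chosen after seeing the data.

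**Figure D2:**
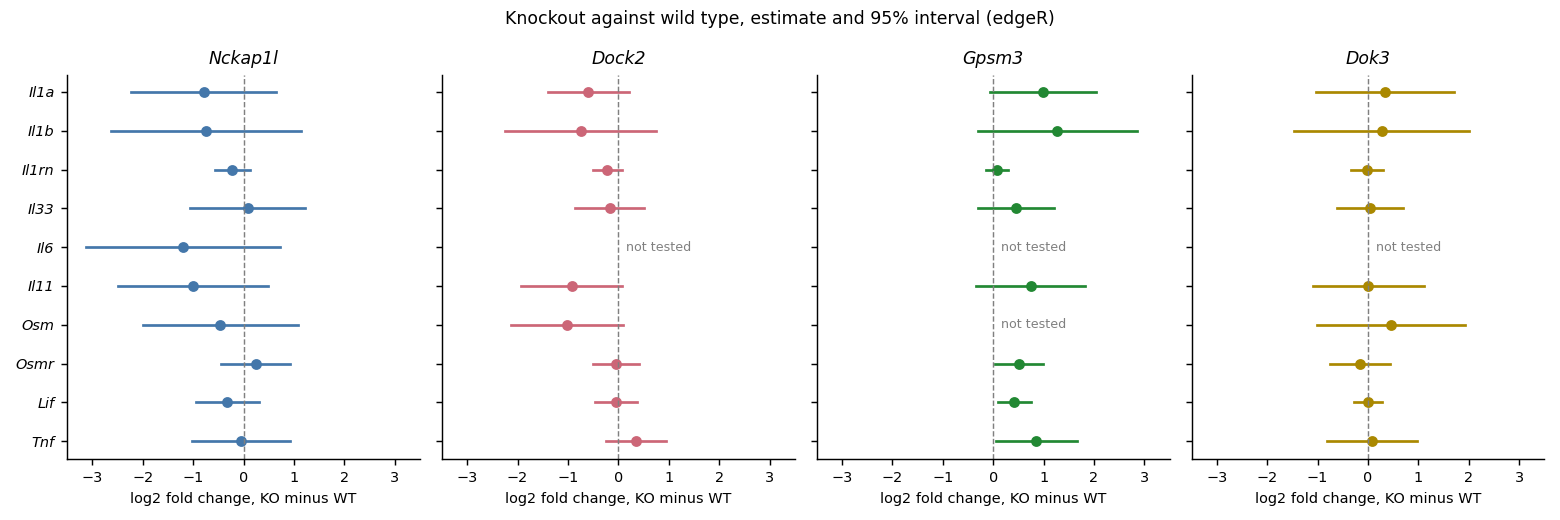
Log2 fold change of knockout against wild type for each member in each line, with 95% confidence intervals from the edgeR fit and a dashed line at 0; members below the count filter are marked as not tested. The intervals cross 0 except for Lif, Osmr and Tnf in the Gpsm3 line, none of which passed after adjustment.

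The plot of fold changes sets the 4 lines side by side, and the difference between the lines' genotype effects was tested directly in a model of all samples. None of the members was called in any of the 6 pairs of lines, against a share of all 19849 genes called of 0.0151% for Nckap1l against Dock2, 0.892% for Nckap1l against Gpsm3, 0.141% for Nckap1l against Dok3, 0.368% for Dock2 against Gpsm3, 0.0504% for Dock2 against Dok3 and 0.161% for Gpsm3 against Dok3. Pairs that name the same line share its samples. Between Nckap1l and Gpsm3 177 genes were called. All 10 members had a lower genotype effect in the Nckap1l line in that pair, 4 of them at an unadjusted p under 0.05, against 8.48% of all genes. They were Lif at -0.83 (p = 0.00619, edgeR adjusted p = 0.236), Il6 at -2.85 (adjusted p = 0.380), Il11 at -1.74 (adjusted p = 0.572) and Il1a at -1.80 (adjusted p = 0.579). Over the other 5 pairs the members at an unadjusted p under 0.05 numbered 0, 1, 2, 1 and 0, against 3.03%, 4.62%, 4.82%, 1.92% and 7.4% of all genes, and limma-voom called 0 in all.

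That comparison changed without the samples with skin RNA, which left 9 knockout and 7 wild-type samples in the Nckap1l line. Then 6 of 10 members were called lower, against 4.96% of all genes (973 of 19605): Il6 at -6.49, Il1b at -4.82, Il11 at -4.31, Il1a at -3.78, Il33 at -2.36 and Lif at -1.55, with edgeR adjusted p-values from 0.00194 to 0.0470. The Nckap1l wild-type samples left ran for Il6 from 0.113 through 7.47 to 33.5 CPM and the knockout samples from 0 through 0.248 to 5.90 CPM. In the Gpsm3 line Il6 ran from 0 through 0.0602 to 3.70 CPM in wild type and from 0 through 0.147 to 6.41 CPM in the knockout. The groups overlapped in both lines. In the Nckap1l knockouts skin RNA was found in 6 of 6 samples of run 1, 1 of 5 of run 2 and 0 of 5 of run 3. In wild type it was found in 7 of 8, 0 of 4 and 1 of 3, so the samples left were spread unevenly over the runs by genotype. The model had no term for the run, and its part in these calls was not tested. Without the samples with skin RNA and the Nckap1l wild-type sample numbered 10, 3 members were called, against 1.55% of all genes called lower. They were Il6 at -6.33 (edgeR adjusted p = 0.00802), Il11 at -3.75 (adjusted p = 0.0281) and Lif at -1.50 (adjusted p = 0.0122). The Nckap1l wild-type female numbered 8 stayed in, with 30.6 CPM of Il6 and 21.3 CPM of Il11, far above the other wild-type females of the line. No fit without skin RNA left that sample out. Neutrophil markers moved with these members: all 8 were lower without the samples with skin RNA, with a median of -4.25, and 1 was called.

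The other genes of the pathways, a list of 53, gave no call in any line either. They comprised 11 receptors and binding proteins, 8 genes of ligand processing and release, 14 of the signal relay and 20 feedback inhibitors and targets. In the Gpsm3 line 46 of the 51 tested had positive differences, with a median of 0.19 against 0.0032 over all genes tested, and 11 had an unadjusted p under 0.05, against 4.86% of all genes. The smallest of these was that of Cebpd, a transcription factor induced by IL-6, at 0.41 (p = 0.00817, edgeR adjusted p = 0.937), followed by Socs1, a feedback inhibitor of JAK kinases, at 0.90 (p = 0.0085). In the other lines the smallest p belonged to Ptgs2, the inducible cyclooxygenase, at -1.35 in the Nckap1l line (p = 0.0126), to Gsdmd, the pore-forming gasdermin D, in the Dock2 line (p = 0.00781) and to Irak1, a kinase of the IL-1 receptor, in the Dok3 line (p = 0.0149), with edgeR adjusted p-values of 0.9996, 0.654 and 0.9996.

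The members moved together from mouse to mouse. Log2 CPM of each of the 9 other members was related to that of Il1b within each line. In the Nckap1l line the samples fell into separate clusters by Il1b, 19 samples from 0.697 to 10.5 CPM, 1 at 25.6 CPM and 11 from 60.8 to 575 CPM, so relations were computed within the clusters of 19 and 11. This gave 45 relations, of which 37 had both an adjusted Pearson and an adjusted Spearman p under 0.05 (two-sided permutation tests). The share of all genes that would pass such tests is not given here, so these counts do not set the members apart from other genes. Outside the members, Gm49339 reached a mean rho of 0.925 with Il1b over the 4 lines. All 27 relations of the Dock2, Gpsm3 and Dok3 lines passed, with Pearson's r from 0.654 to 0.961 and Spearman's rho from 0.519 to 0.873. The raw p for r was at most 4e-05 in these lines, and 1e-05 is the smallest these permutations can give.

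In the Dock2, Gpsm3 and Dok3 lines Osm had the highest r with Il1b of the 9 members. Its r was 0.903 for Dock2 (rho 0.860, n = 42), 0.948 for Gpsm3 (rho 0.842, n = 40) and 0.961 for Dok3 (rho 0.873, n = 47), each with a permutation p of 1e-05 and an adjusted p of 1.8e-05. Without the 2 samples farthest from the median of Il1b, r was 0.863, 0.930 and 0.951. Within the runs of sample numbers it was 0.964 and 0.936 for Gpsm3 and 0.961 and 0.964 for Dok3.

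Il1rn and Lif, the steadiest members, had the lowest r in these 3 lines. Il1rn had r = 0.670 (rho 0.554), 0.682 (rho 0.600) and 0.701 (rho 0.572) in the Dock2, Gpsm3 and Dok3 lines, with permutation p-values for r of 2e-05, 1e-05 and 1e-05 and r of 0.499, 0.577 and 0.610 without the 2 farthest samples. Within runs it was 0.760 and 0.611 for Gpsm3 and 0.642 and 0.838 for Dok3. Lif had r = 0.654 (rho 0.519), 0.727 (rho 0.645) and 0.687 (rho 0.649). The other members lay between, and all relations in these 3 lines kept a positive r within every run, from 0.611 to 0.964 in the Gpsm3 and Dok3 lines.

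Within the Nckap1l clusters of 19 and 11 samples fewer relations with Il1b passed. A cluster holds fewer samples and a narrower range of Il1b than a whole line, so this is not a comparison between lines. Over whole lines, Nckap1l included, the lowest rho with Il1b in any line was 0.519 for Lif, 0.554 for Il1rn and 0.697 for Il33. Among the 19 samples of low Il1b they passed for Il1a (r = 0.740, rho 0.691), Il6 (r = 0.683, rho 0.723), Osm (r = 0.652, rho 0.647), Osmr (r = 0.622, rho 0.525) and Tnf (r = 0.519, rho 0.519), by permutation tests with adjusted p-values for r from 0.000697 to 0.0238. Among the 11 samples of high Il1b they passed for Il1a (r = 0.944, rho 0.955), Osm (r = 0.912, rho 0.918), Tnf (r = 0.882, rho 0.836), Il11 (r = 0.851, rho 0.818) and Il6 (r = 0.774, rho 0.727), with adjusted permutation p-values for r from 3.33e-05 to 0.00601. Il1rn passed in neither cluster (r = 0.387 and 0.554), nor did Lif (r = 0.123 and 0.526) or Il33 (r = 0.357 and 0.686). Each pair of values comes from the same library, and treated and untreated mice stand together, so these relations describe the samples as deposited and not a treated or an untreated group.

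**Figure D3:**
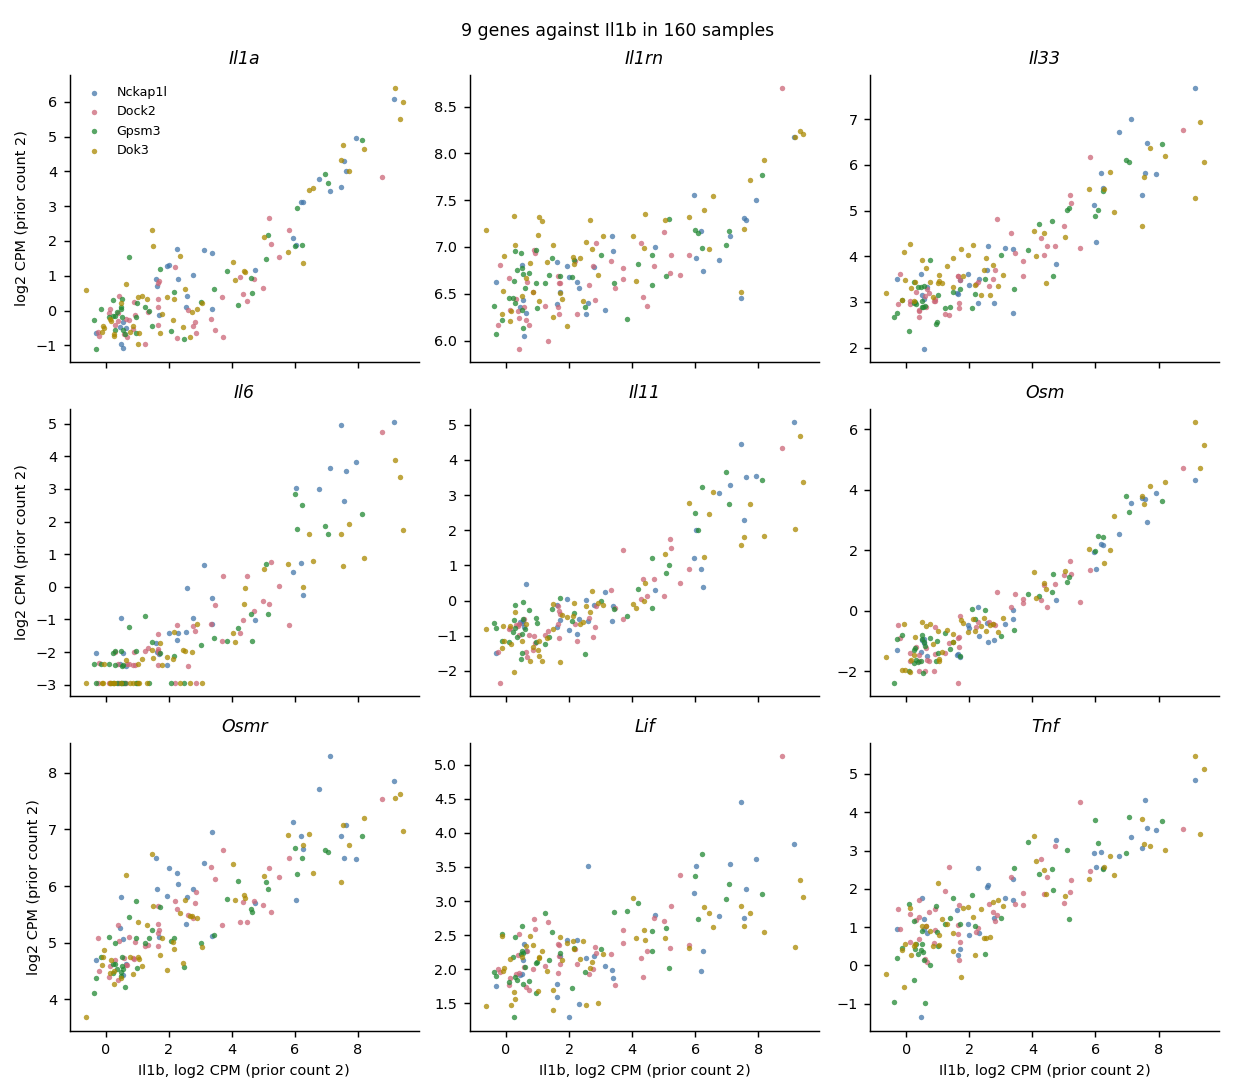
Log2 CPM of each of the 9 other members against log2 CPM of Il1b, 1 panel per member with its own vertical scale and 1 point for each of the 160 samples, coloured by line. Osm rises with Il1b in each of the 4 lines, and Il1rn covers a far narrower range of levels, from 59.7 to 389 CPM.

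As the plot against Il1b shows, the antagonist varied less than its agonist. The ratio of Il1rn to Il1b per length ran from 0.148 through 8.84 to 97.5 over all samples. Il1rn exceeded Il1b in most libraries, and the ratio was below 1 in 31 of 160, namely 10 of 31 Nckap1l samples, 4 of 42 Dock2 samples, 6 of 40 Gpsm3 samples and 11 of 47 Dok3 samples. By CPM, without the length, the ratio was below 1 in 15 of 160 samples. In log2 CPM, likewise without the length, knockout and wild type did not differ in the difference of Il1rn from Il1b beyond the spread: 3.37 ± 2.57 (SD, n = 16) against 2.71 ± 2.37 (SD, n = 15) for Nckap1l, 4.14 ± 1.76 (n = 18) against 4.30 ± 1.84 (n = 24) for Dock2, 4.06 ± 2.41 (n = 20) against 4.64 ± 2.02 (n = 20) for Gpsm3 and 3.92 ± 2.73 (n = 26) against 3.85 ± 2.40 (n = 21) for Dok3. The adjusted p-values of the two-sided permutation tests were 0.922, 0.928, 0.922 and 0.928.

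Females and males were compared in the lines that hold both, with genotype as a covariate. In the Dock2 line Il1rn was lower in females. It ran from 59.7 through 89.1 to 120 CPM in the 20 females and from 72.2 through 107 to 389 CPM in the 22 males. The ranges overlapped, but 5 of 20 females and 16 of 22 males lay above the median of the line. The log2 difference was -0.45 (SE 0.14, 95% interval -0.73 to -0.17, edgeR adjusted p = 0.0323). Il1rn was 1 of the 9 tested members called, against 9.8% of all genes called in this comparison (1730 of 17648) and 5.52% called lower. Members were thus called about as often as all genes. Limma-voom gave -0.36 with an adjusted p of 0.0516 and called 0 members.

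The difference in Il1rn did not rest on the wild-type male numbered 13. Without that library it was -0.27 (-0.44 to -0.11, edgeR adjusted p = 0.0283), and 5.65% of all genes were called lower. Other members did depend on it. Lif ran from 3.17 through 4.05 to 6.19 CPM in females and from 3.66 through 4.75 to 32.3 CPM in males, a difference of -0.61 (-1.03 to -0.20, adjusted p = 0.0504) with the library and -0.29 (adjusted p = 0.0666) without it. Il1b ran from 0.965 through 2.72 to 55.9 CPM in females and from 0.712 through 3.78 to 407 CPM in males, and its difference went from -1.53 (adjusted p = 0.184) to -0.28 (adjusted p = 0.808). Osm went from -1.18 (adjusted p = 0.158) to -0.12 (adjusted p = 0.880).

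Leaving out the 5 samples with skin RNA (2 female, 3 male) moved more members past the threshold. Then 6 of 8 tested members were called lower in females, against 9.79% of all genes: Il1b at -2.66, Osm at -1.93, Il1a at -1.30, Il33 at -0.94, Lif at -0.72 and Il1rn at -0.56, with edgeR adjusted p-values from 0.00831 to 0.0250. Without the wild-type male numbered 13 as well, 3 of 7 tested were called, against 8.96% of all genes: Il1a at -0.73 (adjusted p = 0.0359), Il1rn at -0.35 (adjusted p = 0.00514) and Lif at -0.34 (adjusted p = 0.0337). Il1b was then at -1.37 (adjusted p = 0.0830). Il1rn was the member called lower in females under each of these edgeR fits.

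Neutrophil markers moved with sex in this line. Their summed level ran from 23.1 through 55.9 to 354 CPM in females and from 48.4 through 75.1 to 2290 CPM in males, 7 of 7 tested markers were lower in females with a median of -1.42 and none was called, and 6 of 7 were called lower without the samples with skin RNA. Their part in the difference of Il1rn was not tested. Of the other pathway genes 2 of 52 were called, a smaller share than the 9.8% of all genes. Lifr, the receptor chain for LIF, was higher in females by 0.55 (0.38 to 0.72, edgeR adjusted p = 4.61e-05). Lcn2, which encodes the iron-binding protein lipocalin-2 and is induced by IL-1 and IL-6 family cytokines, was lower by -1.96 on the log2 scale (-3.01 to -0.91, adjusted p = 0.0132).

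**Figure D4:**
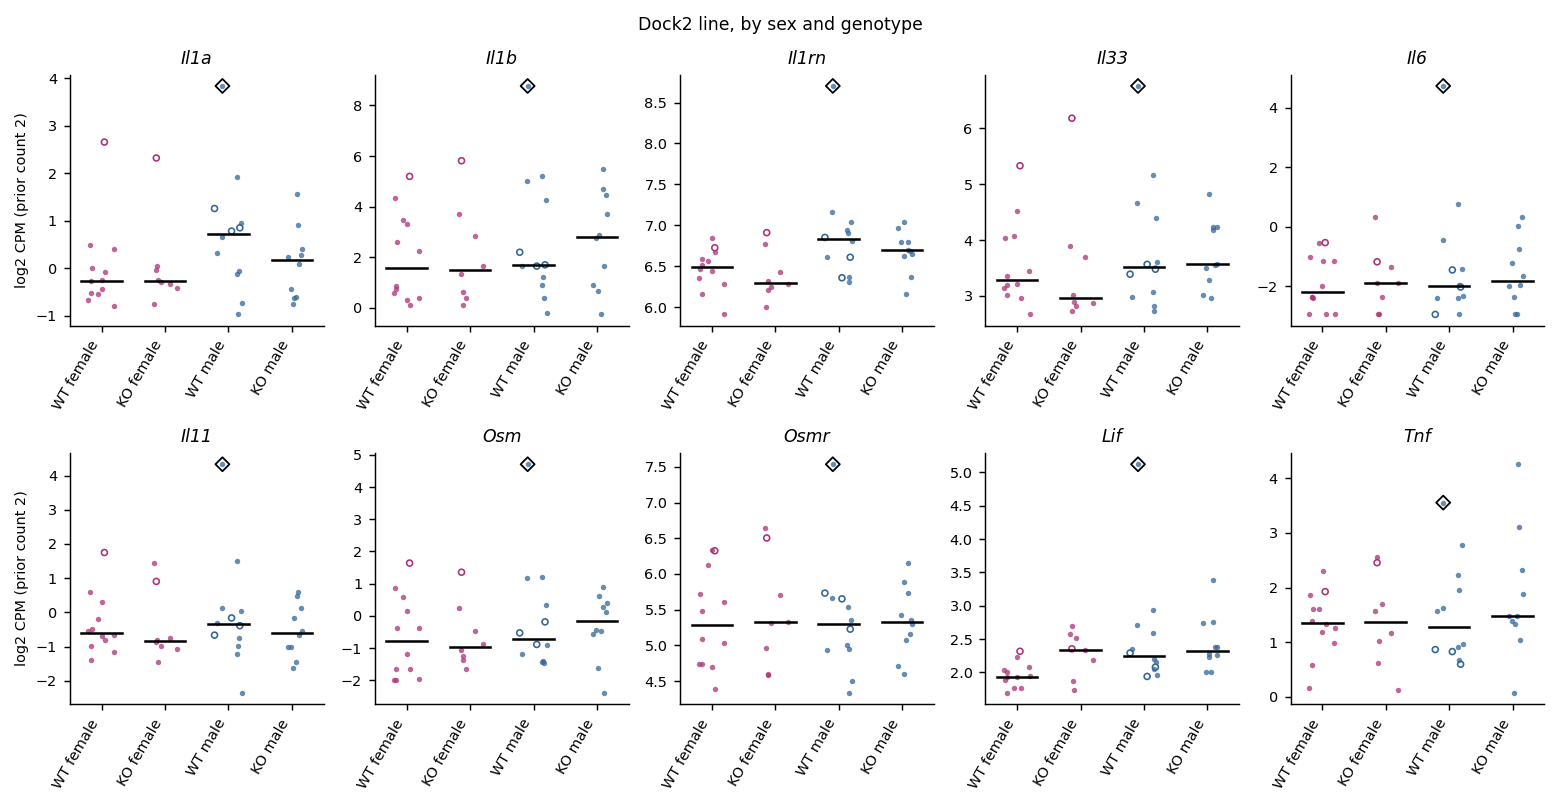
Log2 CPM of the members in females and males of the Dock2 line, split by genotype, 1 point per sample and an open circle where skin RNA was found; the black line is the median of the group and the diamond marks the wild-type male numbered 13. Most Il1rn values of females lie below the median of the males, and the diamond is the highest sample for all members but Tnf.

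The plot by sex shows how far the numbered male lies from the rest. In the Nckap1l line no member was called between females and males, against 0.178% of all genes (32 of 17947), and 0 had an unadjusted p under 0.05, as 15.7% of all genes did. Il1rn was at -0.31 (-0.66 to 0.05, edgeR adjusted p = 0.385) there, and Lifr at 0.60 (0.22 to 0.98, adjusted p = 0.157). Skin RNA was found in 9 of 12 females and 6 of 19 males of that line, so sex and skin RNA moved together. Sex moved with the runs of sample numbers as well, which held 9 females of 14 samples in run 1, 0 of 9 in run 2 and 3 of 8 in run 3. With the run as covariate Il1rn was at -0.06, and 9 of 10 members were positive instead of 5. Il1b turned from -0.56 to 1.89 and Osm from -0.06 to 1.78, and Il11 went from 0.05 to 1.87 (unadjusted p = 0.0451), none of them called (smallest edgeR adjusted p = 0.632). The difference of the genotype effect between the sexes gave 0 called members in both lines, against 0% of all genes for Nckap1l and 0.181% for Dock2 (32 of 17648), and 0 members at an unadjusted p under 0.05, which 3.28% and 4.47% of all genes had; limma-voom also called 0. All 10 members had a higher knockout effect in females in the Nckap1l line, the smallest p being that of Il33 at 2.23 (p = 0.0538, edgeR adjusted p = 0.999), with 4 knockout females. This depended on the setting. Without the wild-type sample numbered 10, Il33 was at 0.93 (edgeR unadjusted p = 0.365) and Tnf at -0.009. With the run as covariate Il33 was at 1.38 and Il1b at 0.23. Skin RNA was found in 3 of the 4 knockout females. Without the samples with skin RNA Il33 was at -0.94 and Il1b at -3.45, while Il1rn stayed positive at 0.81.

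In the Nckap1l line 7 of 10 members differed between the 3 runs of sample numbers by edgeR, a count that limma-voom put at 2 and the fit without skin RNA at 0. Il1b ran from 2.90 through 7.61 to 175 CPM in run 1, from 1.24 through 60.8 to 575 CPM in run 2 and from 0.697 through 2.26 to 62.6 CPM in run 3. The ranges overlapped, and the highest median and the highest sample were both in run 2. The medians of the gp130 cytokines in runs 1, 2 and 3 were 0.521, 5.90 and 0.117 CPM for Il6, 0.843, 3.67 and 0.533 CPM for Il11, and 0.763, 2.32 and 0.356 CPM for Osm. Those of Tnf were 3.24, 9.29 and 2.02 CPM. Osmr was highest in run 1, with medians of 87.7, 54.4 and 36.8 CPM, and Il1a had medians of 3.11, 3.35 and 0.726 CPM.

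The 7 members called by edgeR's quasi-likelihood test were Il1a (adjusted p = 0.00573), Il11 (0.00774), Il6 (0.0123), Osm (0.0131), Il1b (0.0147), Tnf (0.0155) and Il33 (0.0477). This stands against 37.9% of all genes called in the same comparison (6806 of 17947). Osmr (adjusted p = 0.0590), Il1rn (0.0881) and Lif (0.283) were not called. Skin RNA was found in 13 of 14 samples of run 1, 1 of 9 of run 2 and 1 of 8 of run 3, so run 1 and skin RNA cannot be told apart. Neutrophil markers moved with the runs as well, with 6 of 7 called and summed medians of 69.1, 186 and 56.4 CPM. Without the samples with skin RNA 0 of 9 tested members were called, against 0.0114% of all genes (2 of 17547), while 5 members and 14.5% of genes had an unadjusted p under 0.05. Limma-voom called 2 members, Osmr (adjusted p = 0.0302) and Tnf (0.0343). Without the wild-type sample numbered 10, 6 members were called, against 40.3% of all genes, Il33 being the one lost (edgeR adjusted p = 0.132).

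**Figure D5:**
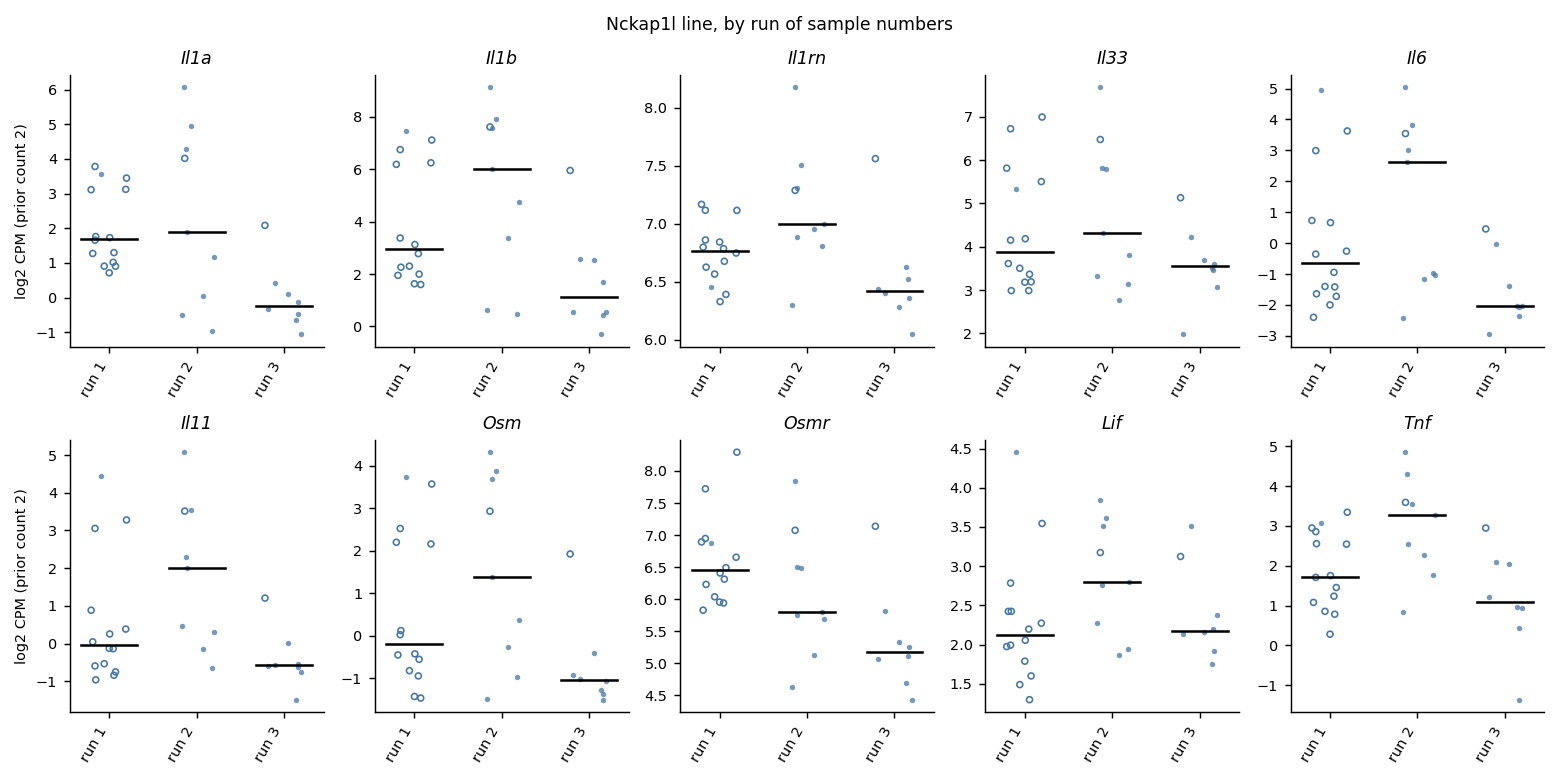
Log2 CPM of the members in the 3 runs of sample numbers of the Nckap1l line, 1 point per sample and an open circle where skin RNA was found; the black line is the median and each panel has its own scale. Run 2 holds the highest samples of Il1b, Il6, Il11 and Tnf, and nearly all samples of run 1 are open circles.

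The plot by run also shows the medians of Il1a and Osmr in run 1 above those in run 3. Over the whole Nckap1l line the samples with skin RNA had a median of 3.14 CPM of Il1a against 0.892 CPM in the others, and of 89.9 against 44.7 CPM of Osmr, which is given as a description. In the Gpsm3 line 0 of 8 members were called between the runs, against 7.94% of all genes (1394 of 17560), with 1, Il1a, at an unadjusted p under 0.05, as 23.5% of all genes were. In the Dok3 line 0 of 9 were called, against 0.125% of all genes (22 of 17612), and 0 had an unadjusted p under 0.05, as 6.61% of all genes did. Limma-voom called 0 in both lines.

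For each member the most alike genes were ranked by the mean over the 4 lines of Spearman's rho with log2 CPM within the line, over 160 samples and among 17066 genes. Il1b was most like Gm49339 (0.925), the inflammasome sensor Nlrp3 (0.918) and Csf3r, the receptor of the neutrophil growth factor G-CSF (0.918). Osm was most like Nlrp3 (0.859), Clec4d (0.849), a C-type lectin of myeloid cells, and Il1rl1, the IL-33 receptor (0.846), which was also among the 3 of Il11 (0.787) beside Marcksl1 (0.804) and Lpcat4 (0.787). Tnf was most like its receptor Tnfrsf1b (0.869), the inducible nitric oxide synthase Nos2 (0.858) and Ly6a (0.854).

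Osmr had the closest partners of all members, St3gal1 (0.942), Adam8 (0.927) and Tnfaip2 (0.926). Il6 was most like the histidine decarboxylase Hdc (0.830), ENSMUSG00000089672 (0.819) and Tnfaip2 (0.811), and Il33 most like Fxyd5 (0.812), the matrix metalloproteinase Mmp9 (0.806) and Pirb (0.803). Il1a was most like the cystine transporter Slc7a11 (0.807), Igfbp5 (0.778) and Chl1 (0.776). The steadier members had weaker partners, among them Rab32 (0.756) and Rdh10 (0.722) for Il1rn, and Vmp1 (0.713), the AP-1 subunit Junb (0.683) and Ripk3 (0.680) for Lif. These are descriptions of likeness over samples that share depth and tissue make-up.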

How the data were processed

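Distal colon RNA was sequenced from ribosome-depleted, stranded libraries with single reads. The authors deposited raw counts per Ensembl gene, not normalized, made with STAR, featureCounts and Subread on mm10 per the submitters' processing notes; versions and the strand setting are not given in the sources used here. Samples were grouped by line, genotype and sex as labelled, and Aif1 samples were not analysed here. Replicate numbers only name samples, nothing says whether libraries were prepared separately, and p-values measure the spread between these samples.

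CPM are counts scaled to a total of 1000000 in each sample, and log2 CPM used TMM scaling with a prior count of 2. Each line was filtered with filterByExpr and fitted over all genes with edgeR 4.0.16 (quasi-likelihood test, Benjamini-Hochberg, threshold 0.05, R 4.3.3), and sex was a term of the model where both sexes were present; the study's treatment term could not be fitted. Alternatives were DESeq2 1.42.0, limma-voom (limma 3.58.1), RLE scaling, other count filters, 2 surrogate variables (sva 3.50.0), males only, no sex covariate, the run of sample numbers as covariate, and leaving out samples with skin RNA or with sex markers against the label. Fits within single runs and without 1 library were added after seeing the data. The fits were tested on simulated data. Permutation tests used 100000 resamples (scipy 1.17.1). The 36 relations with Il1b that had been planned became 45 because the Nckap1l samples fell into clusters more than 1 apart on the log2 scale. Named genes were the members, the 3 most alike genes of each (1 is not reported here), pathway genes past the threshold or else with the smallest p in a line, and the knocked-out genes; Socs1 was named after its value was seen. The members and gene lists were chosen with earlier results of these data known. Positions are GENCODE's on GRCm38 and promoter sequences RefSeq's on GRCm38.p6. Figures were drawn with matplotlib 3.10.9.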

Additional observations from a re-analysis of the deposited data

Results flagged for a closer look

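Members were searched for samples standing apart in the 5 sample groups of 4 to 10 libraries of 1 line, genotype and sex, by the gap to the nearest other sample as a share of the group's range. Of 50 tested groups 4 passed the limit of 0.526 for 8 samples, where chance gives about 1 in 20. Among the wild-type females of the Nckap1l line, the sample numbered 8 was far above the others in Il6, at a log2 CPM of 4.95 against 0.66 for the nearest (gap 0.583 of the range), and in Il11, at 4.44 against 1.21 (gap 0.612). It held 30.6 CPM of Il6 and 21.3 CPM of Il11, and no skin RNA. Among the knockout females of the Dock2 line, the sample numbered 13 was far above the others in Il1a, at a log2 CPM of 2.32 against 0.036 (gap 0.742), and in Il33, at 6.18 against 3.89 (gap 0.662). It held skin RNA.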

How the results depend on the processing

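No member was called between knockout and wild type under any alternative, and of 384 fold changes of single members computed under alternatives 66 changed sign, none of them called (smallest edgeR, DESeq2 or limma-voom adjusted p 0.249); the cause was not tested. The counts of genes called in the knockout comparisons moved by more than 1.5 times in several settings. In the Nckap1l line, against 0, they were 21 with DESeq2, 8 with a filter of 1 count in any sample, 91 with 2 surrogate variables, 2 within run 1 and 26 within run 3. In the Dock2 line, against 6, they were 76 with DESeq2, 0 with limma-voom, 28 with 1 count in any sample, 1 with 10 counts in every sample, 90 with surrogate variables, 78 without samples with skin RNA and 1 in males. In the Gpsm3 line, against 1, they were 4 with DESeq2, 29 with 1 count in any sample, 0 with 10 counts in every sample, 2 without skin RNA, and 0 within run 1 and 0 within run 2. In the Dok3 line, against 0, they were 3 with DESeq2, 14 with 1 count in any sample and 16 within run 2. Members called between the Nckap1l runs went from 7 to 2 with limma-voom and 0 without skin RNA. Members called between the sexes of the Dock2 line went from 1 to 0 with limma-voom, 6 without skin RNA and 3 without skin RNA and wild-type replicate 13. Members called between the lines' genotype effects went from 0 to 6 without skin RNA and 3 without skin RNA and Nckap1l wild-type replicate 10. The count of relations with Il1b ranged from 26 of 36 in knockouts to 37 of 45, and 28 of 36 passed without skin RNA.

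The signs that turned in the Nckap1l line, as log2 differences of knockout from wild type, were these. Within run 1 they were Il1a 1.07, Il1b 1.46, Il1rn 0.21, Il6 0.59, Il11 0.41, Osm 1.36, Lif 0.10 and Tnf 1.14. Without wild-type replicate 10 they were Il1b 0.0080, Osm 0.053 and Tnf 0.46. With 2 surrogate variables Osm was at 0.073 and Tnf at 0.37, and with the run as covariate Osm at 0.10 and Tnf at 0.34. Osmr and Il33 were at -0.22 and -0.80 in males, -0.51 and -1.01 within run 2, -0.49 and -0.97 within run 3, and -0.92 and -1.87 without skin RNA. Tnf was at 0.11 with limma-voom and 0.033 with no sex covariate.

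In the Dock2 line limma-voom gave Il1b 0.073, Osmr 0.052 and Lif 0.12, and leaving out wild-type replicate 13 gave Il1b 0.39, Osmr 0.17, Lif 0.26 and Il33 0.15. DESeq2 gave Osm 0.0010 and Lif 0.26, and surrogate variables Osmr 0.083 and Lif 0.026. In the Gpsm3 line surrogate variables gave Il1rn -0.039 and Il33 -0.022, and no other setting turned a sign. In the Dok3 line limma-voom gave Il1a -0.13, Il1b -0.18, Il11 -0.33, Osm -0.29, Tnf -0.11 and Il33 -0.085. Within run 2 of that line Il1a was at -2.95, Il1b at -2.99, Il11 at -1.98, Tnf at -1.45 and Il33 at -0.47, and within run 1 Il1rn was at 0.093, Osmr at 0.12 and Lif at 0.17. Without skin RNA Il1a was at -0.025, Il1b at -0.47, Il11 at -1.30, Tnf at -0.13 and Il33 at -0.32. The run as covariate gave Il1b -0.034, Il11 -0.20 and Il33 -0.016, surrogate variables gave Il1rn 0.019, Il11 -0.10 and Lif 0.018, leaving out sex-marker mismatches gave Il1rn 0.030, DESeq2 gave Il11 -0.88, and 1 count in any sample gave Il11 -0.011.

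Depth limits Il6, which was under 3 counts in 84 of 160 libraries, and the spread between mice limits Il1b, Il1a, Osm and Il11. The sex-marker alternative gave no value in the other lines, which held no such sample. Leaving out each replicate in turn was not run, since every group of line and genotype held 15 or more samples. No paired analysis was possible because the numbers of the samples only name them and join no knockout to a wild-type sample.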
